A study of Homo sapiens with 2 samples.

Results

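The 10 S100 genes S100A2, S100A3, S100A4, S100A6, S100A10, S100A11, S100A13, S100A14, S100A16 and S100P were compared between HT-29 spheroids and HT-29 monolayer cells. They were taken from 19775 genes that have a probe set of their own on the array, as every probe set that the platform annotation assigns to one of these symbols, and 13 probe sets were found. HT-29 cells derive from a carcinoma of the human colon. The monolayer was adherent, in medium with 10% serum. The spheroids formed from such cells on plates that prevent attachment, in stem cell media with B27, EGF and FGF, and were collected on day 5, which means that attachment and medium changed at once. RNA of the monolayer and of the spheroids went on 1 U133 Plus 2.0 array (Affymetrix) apiece. No value below therefore has a replicate behind it, and no statistical test could be made between the cultures.

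S100 proteins are small calcium sensors of the EF-hand type that mostly work as dimers. On binding calcium they expose a surface that docks on target proteins such as annexins, myosin and ezrin, and several are also secreted and act on the receptor RAGE. S100A10 is the exception that holds its active shape without calcium. Epithelial cells and carcinomas of the colon express several members, and S100A4 and S100P are known for their links to invasion and metastasis.

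The S100 genes other than S100P differed little between spheroids and monolayer. With S100P counted at its lower bound, 0 of 10 passed 2-fold in spheroids' favour and 0 of 10 in the monolayer's. Of 13183 measured genes, 2.53% and 3.08% did. At shares this small, a count of 0 among 10 genes does not set the members apart from other genes. For S100P, which was below detection in monolayer as defined here, the difference is only a lower bound. It counts as under each threshold although its fold is not known. At 1.5-fold the members again numbered 0 in each direction, against 9.53% higher and 11.6% lower of all measured genes, and at 3-fold, where they numbered 0 as well, 0.394% and 0.455% passed. S100A3, at 1.495-fold lower, lay just inside the 1.5-fold limit and passed it with median scaling and with quantile normalization, so that the count of members lower became 1 there. A gene counts as measured when its signal is over 62.7 on 1 or both arrays. This floor is the 50th percentile of the signals of both arrays, and lower signals were raised to it. A gene with several probe sets is represented by its brightest. The median log2 difference (spheroid minus monolayer) of the members was -0.19, beside -0.05 for all measured genes. It was under 0 for 8 of the 10 members, beside 54.8% of all measured genes. The sign of most members depends on the scaling. When the arrays were scaled to the hybridisation spike-ins, whose 18 probe sets were all lower on the spheroid array, only 2 members were under 0 and the members' median was 0.06, with that of all measured genes at 0.18. That scaling also turned the counts over all genes from 334 higher and 406 lower to 700 higher and 189 lower.

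The only measure of error that these arrays give is the spread between probe sets of one gene. The SD of their log2 differences was 0.41 over 5506 genes. It was 0.24 over the 1505 genes with several probe sets of a mean signal over 1000, and 0.54 over the 1108 genes with several under 250. The spread holds no variation between cultures. Of the 9 members above the floor on both arrays, 1, S100A3, had a difference larger than 0.41 in size, while the bound for S100P cannot be placed against it.

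The epithelial character of the cells was checked first. EPCAM, an epithelial adhesion molecule, gave 21151 on the monolayer array against 22299 on the spheroid array, and KRT18, a keratin gene, 29713 against 22627. Of 12 colon markers 9 were measured, their median log2 difference was 0.08, and their summed signal was 86221 in monolayer and 76147 in spheroids. KRT20 alone passed 2-fold, 2.19-fold higher at a dim signal, where 2.53% of all measured genes were at least 2-fold higher. The markers that are more specific to intestine were dim. CDX1, CDH17 and LGALS4 were under the floor on both arrays. CDX2 was at 55.9 and 80.0, VIL1 at 100.5 and 27.2, GPA33 at 11.3 and 97.2 and KRT20 at 99.6 and 218.4. EPCAM and KRT18 were thus bright on both arrays, while most of the more specific intestinal markers were at or near the floor. KRT20 was the exception, above the floor but dim in spheroids. As a set these intestinal markers therefore do not bear out the intestinal origin that the labels give, and the cells are called HT-29 here as labelled. Of 20 markers of other cell types 13 were under the floor on both arrays, and their summed signal was 2265 in monolayer and 2915 in spheroids. Most of that sum was COL1A1, a collagen gene, at 1370 and 1972 by its brightest probe set. Its other probe sets were far dimmer, from 40.8 to 312.6 in monolayer and from 70.9 to 301.8 in spheroids. CD79A was at 182.9 and 229.9, ITGAM at 122.8 and 97.47 and PECAM1 at 123.7 and 99.5. The leukocyte marker PTPRC was at 25.1 and 22.4. The part of other cells in the S100 values was not tested. In a bulk culture fewer cells of a type and less RNA per cell cannot be told apart.

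For S100A6, S100A10 and S100A4 the signals were near 16000 or above it. S100A6, or calcyclin, which binds the ubiquitin ligase adaptor CACYBP, gave a signal of 41163 on the monolayer array against 34871 on the spheroid array, 1.18-fold lower. S100A10, or p11, the light chain of the annexin A2 complex at the plasma membrane, was at 17451 and 14795, also 1.18-fold lower. S100A4, which binds non-muscle myosin and is known as metastasin, was at 14717 and 13346, 1.10-fold lower. All 3 were slightly lower in spheroids on the scale as deposited, and at log2 differences of 0.007, 0.008 and 0.11 when scaled to the spike-ins.

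Signals of 16000 or more may be flattened by saturation. This touches 2 of the 13 probe sets, those of S100A6 on both arrays and of S100A10 in monolayer. Of all probe sets on the arrays, 599 reached that signal on 1 or both arrays, and the highest was 68687. Among the 285 genes with a mean signal of 16000 or more the SD of the log2 difference was 0.22, against 0.36 for 1348 genes between 4000 and 16000 and 0.42 for 3613 genes between 1000 and 4000. In the brightest range 1 gene was at least 2-fold higher and 0 were at least 2-fold lower. Differences were thus smaller in size among bright probe sets in general. S100A6 and S100A10, at log2 differences of -0.24 each, lay inside the range from -0.40 to 0.44 that held the middle 95% of these 285 genes, and 17.2% and 17.5% of the genes had a lower difference. The part of saturation in these small differences was not tested.

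**Figure D1:**
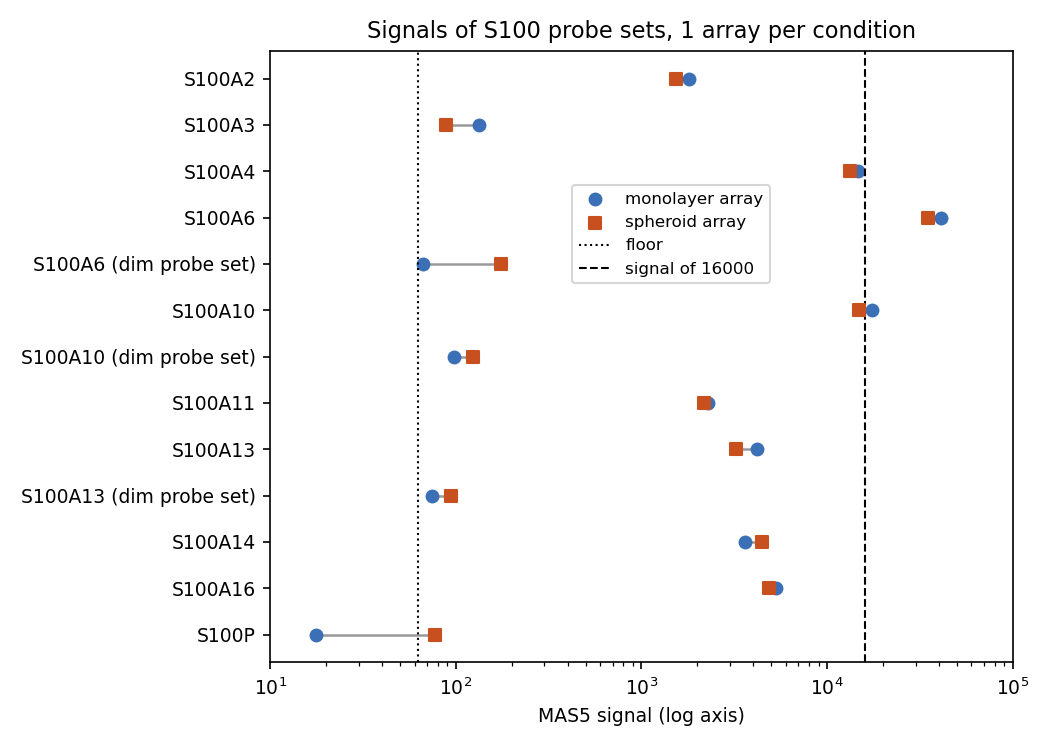
MAS5 signal (log axis) of the 13 probe sets of 10 S100 genes on the monolayer array (blue circles) and the spheroid array (orange squares), 1 array per condition, with the floor of 62.7 dotted and a signal of 16000 dashed. Circle and square nearly coincide for the bright probe sets, and the dim second probe sets of S100A6, S100A10 and S100A13 and the probe set of S100P lie higher in spheroids.

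The members of intermediate signal were also close to each other on both arrays. S100A11, which binds annexin A1 and takes part in growth control of epithelial cells, was at 2290 in monolayer and 2170 in spheroids, 1.06-fold lower. S100A16, a widely expressed member, was at 5279 and 4891, 1.08-fold lower. S100A2, a largely nuclear member of epithelial cells, was at 1800 and 1530, 1.18-fold lower. These 3 differences, between -0.08 and -0.23 on the log2 scale, were under the SD of 0.24 between bright probe sets of one gene. Of the other 2 members in this group, S100A13, which helps to release the growth factor FGF1 from cells, was at 4214 and 3236, 1.30-fold lower with a log2 difference of -0.38. S100A14, an epithelial member, was at 3623 and 4487, 1.24-fold higher at 0.31. These 2 differences exceeded 0.24 but not 0.41, and lay in opposite directions although the genes are neighbours on chromosome 1. S100A13 remained under 0 (-0.13) and S100A14 above 0 (0.55) on the spike-in scale. In their signal ranges, 17.8% of genes had a lower difference than S100A13 and 86.0% a lower difference than S100A14.

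S100A3 and S100P were dim. S100A3, a cysteine-rich member best known from the hair cuticle, gave 132.96 on the monolayer array against 88.9 on the spheroid array, 1.495-fold lower. Its log2 difference of -0.58 was the lowest of the 10, and 17.0% of the 4206 genes with a mean signal between the floor and 250 had a lower one. The SD between probe sets of one gene is 0.54 at such signals, and the difference was -0.66 with median scaling, -0.65 with quantile normalization and -0.33, under that SD, with the spike-ins. S100P, a secreted member that binds ezrin and RAGE, was at 17.6 in monolayer, under the floor, and at 77.4 in spheroids. Against the floor it was at least 1.23-fold higher. Its spheroid signal is also under 84.7, a higher floor that exceeds 95% of the olfactory receptor probe sets, and with that floor S100P had no fold. The deposited signals themselves stood at a ratio of 4.39, with the monolayer value in a range where the signal carries little information.

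**Figure D2:**
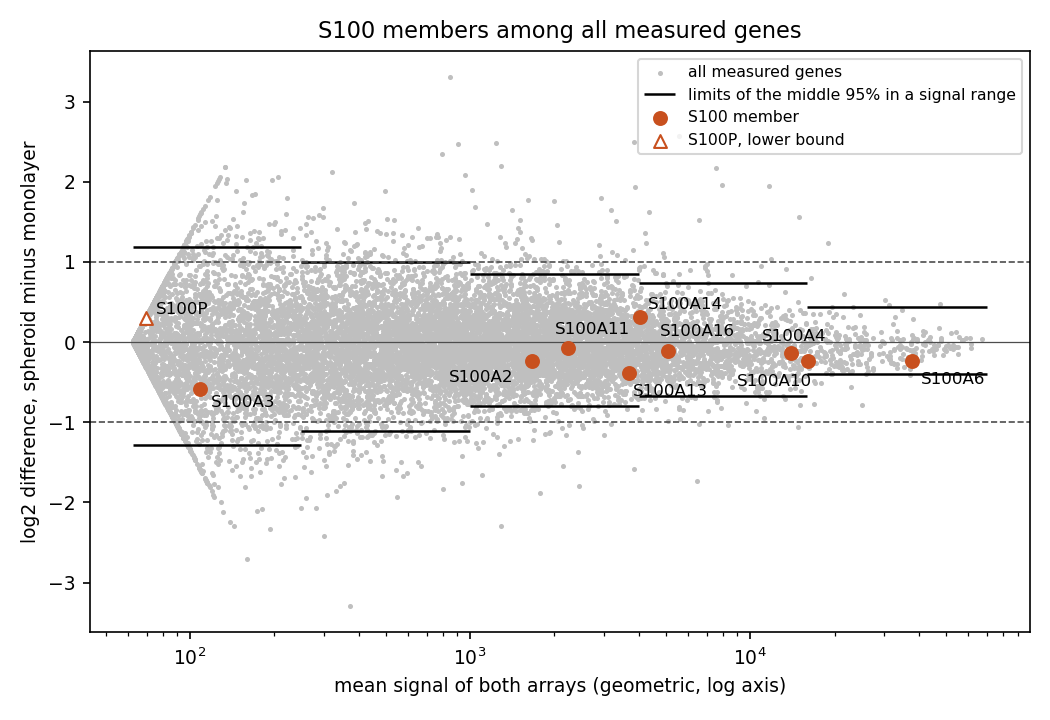
Log2 difference between the spheroid and the monolayer array against mean signal (log axis) for 13183 measured genes (grey) and the 10 S100 members (orange; S100P as an open triangle, a lower bound), with 2-fold differences dashed and the limits of the middle 95% of each signal range as black lines. All 10 members lie between the black lines and between the dashed lines, and the grey cloud narrows to the right.

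The second probe sets of 3 members went the other way. S100A6 has a dim probe set that gave 66.4 on the monolayer array against 175.1 on the spheroid array (log2 difference 1.40), beside -0.24 by its bright one. The dim probe set of S100A10 was at 97.2 and 123.3 (0.34) and that of S100A13 at 74.7 and 94.1 (0.33). In all 3 genes the dim probe set was thus above 0 and the bright one under 0. The gap was 1.64 for S100A6, 0.71 for S100A13 and 0.58 for S100A10. Over 1269 genes with a bright probe set over 1000 and a dim one under 250, both above the floor on both arrays, 56.6% of 1602 dim probe sets had the higher difference of the pair and the median gap was 0.10. A gap of 1 or more, as in S100A6, was seen in 6.68%. This comparison was added after the values were seen. By RefSeq S100A6 overlaps a long non-coding RNA gene, S100A3 and S100A4 overlap another, S100A4 overlaps S100A5, and S100A13 overlaps S100A1 and CHTOP. S100A11 has 10 annotated pseudogenes. The share of such transcripts in the signals was not tested.

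Of the 10 members 9 lie on chromosome 1 in the S100 cluster, and S100P lies on chromosome 4. In RefSeq order S100A10 and S100A11 come first, then 47 other protein-coding genes, mostly of the epidermal barrier, and then the S100 genes from S100A9 to S100A1. S100A9, S100A12, S100A8, S100A7A and S100A7, which follow each other and include the calgranulins of neutrophils, were all under the floor on both arrays. The next gene is S100A6, with the signals given above. S100A5, between S100A6 and S100A4, was at 65.5 in monolayer and 11.2 in spheroids, at least 1.04-fold lower. S100A1, at the end of the cluster, was under the floor on both arrays. Of the 47 genes between S100A11 and S100A9, 24 have a probe set of their own and 18 of these were under the floor on both arrays. The 6 flanking genes with a measured signal had log2 differences from -0.61 (THEM4, a thioesterase) to 0.02 (CHTOP), and the 9 S100 members from -0.58 to 0.31. The range of the members thus overlapped that of their neighbours.

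**Figure D3:**
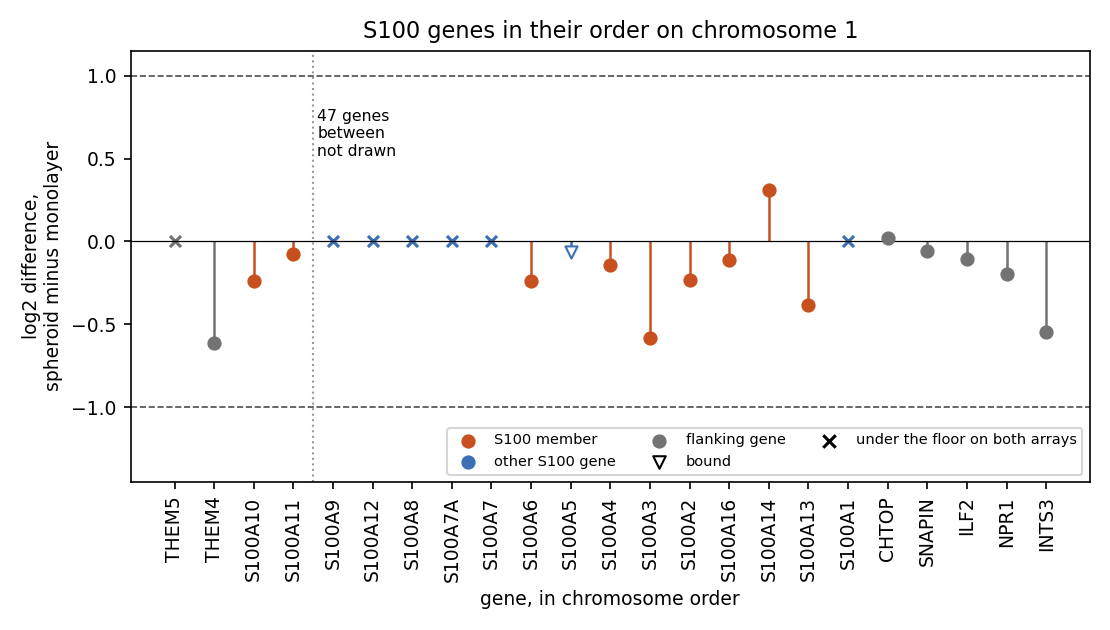
Log2 difference between the spheroid and the monolayer array for genes in their order along chromosome 1, with S100 members in orange, other S100 genes in blue and flanking genes in grey; open triangles are bounds, crosses are genes with no signal over the floor, and 2-fold is dashed. S100A9 to S100A7 form a run of crosses, S100A14 is the only member above 0 and S100A3 the lowest.

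Outside chromosome 1, S100B, S100G and S100Z were under the floor on both arrays. The list of other S100 genes also holds S100PBP, which is not an S100 gene. Of its 11 genes with a probe set of their own, 9 were under the floor on both arrays, while 13183 of all 19775 genes were measured. S100PBP, which encodes a nuclear protein that binds S100P, was at 855.8 in monolayer and 1103 in spheroids by its brighter probe set and at 765.0 and 909.0 by the other, with log2 differences of 0.37 and 0.25. The neutrophil members S100A8, S100A9 and S100A12 and the glial member S100B thus gave no signal over the floor on either array. Of the 2 measured genes of this list, S100A5 and S100PBP, 0 passed 2-fold, beside 2.53% higher and 3.08% lower of all measured genes.

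The members' promoters were read from RefSeq (GRCh38.p14) to show what sequence they share besides their place in the genome. The table holds 250 bases before and 50 after each annotated start, and 14 starts for the 10 members. The letters TATAA, the core of a TATA box, were searched on both strands, in the bases from 45 to 16 before the start. They were found at 5 of the 14 starts, one each in S100A4, S100A6, S100A13, S100A14 and S100P, and at 5.04% of all 35116 starts in the table. In the whole window of 300 bases they were again at 5 of the 14 starts, 35.7%, and at 20.4% of all, so that the contrast is smaller there. The letters GGGCGG, the GC box, were found on either strand in the whole window of 6 of 14 starts, 42.9%, and of 15786 of all 35116. In the narrow window GGGCGG was at 1 of 14 starts, 7.14%, and at 11.4% of all. The letters TGANTCA and CANNTG, with N for any base, were searched as well. In the whole window they were at 14.3% and 71.4% of the members' starts, and at 7.71% and 68.7% of all. In the narrow window they were at 0 of 14 starts each, and at 0.706% and 9.87% of all. The contrast for TATAA in the narrow window is thus picked from several that were looked at. The 120 bases before the start are shown for 4 members with TATAA, which include the bright S100A4 and S100A6 and the 2 members above 0, and for S100A10 and S100A11, which have none in this window. S100A13, which also has TATAA and at -0.38 is the lowest of the 5, is not shown. Capitals mark TATAA or its reverse complement TTATA, which overlap in S100P. All are written 5′ to 3′ on the strand of the gene.
S100A4 promoter, chr1:153545807-153545926, minus strand: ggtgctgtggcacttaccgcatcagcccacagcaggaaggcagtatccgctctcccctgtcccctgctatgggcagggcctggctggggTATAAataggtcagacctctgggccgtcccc
S100A6 promoter, chr1:153535992-153536111, minus strand: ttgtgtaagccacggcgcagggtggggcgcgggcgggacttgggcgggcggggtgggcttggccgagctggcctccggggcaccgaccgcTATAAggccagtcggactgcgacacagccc
S100A14 promoter, chr1:153616326-153616445, minus strand: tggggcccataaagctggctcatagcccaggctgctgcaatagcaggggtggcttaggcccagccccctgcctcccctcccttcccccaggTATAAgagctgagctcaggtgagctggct
S100P promoter, chr4:6693758-6693877, plus strand: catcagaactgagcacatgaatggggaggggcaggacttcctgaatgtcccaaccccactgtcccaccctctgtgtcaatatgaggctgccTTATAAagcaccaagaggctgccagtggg
S100A10 promoter, chr1:151993860-151993979, minus strand: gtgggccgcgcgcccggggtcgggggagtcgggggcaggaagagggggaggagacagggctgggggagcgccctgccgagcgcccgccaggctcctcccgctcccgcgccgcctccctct
S100A11 promoter, chr1:152037005-152037124, minus strand: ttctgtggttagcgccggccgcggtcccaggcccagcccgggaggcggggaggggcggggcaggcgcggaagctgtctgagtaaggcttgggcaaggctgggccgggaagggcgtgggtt
The log2 differences ran from -0.38 to 0.31 over the 5 members with TATAA and from -0.58 to -0.08 over the 5 without, and the 2 ranges overlap. A match of letters is a description and not a site in use.

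Among the partners of S100 proteins the largest difference that rests on several bright probe sets was that of ezrin. EZR, which links the membrane to actin and is bound and activated by S100P, gave 21301 on the monolayer array against 10224 on the spheroid array, 2.08-fold lower (log2 difference -1.06). Its other 3 bright probe sets were at -1.26, -1.27 and -1.28 and its dim one at -0.53. The probe sets at 21301 and 20540.5 in monolayer lie in the range where saturation may flatten differences. With quantile normalization the brightest was at -0.99 and with the spike-ins at -0.81, so that the call of 2-fold does not hold there for that probe set, while 3 of the 5 probe sets passed 2-fold under each. TRPM4, a calcium-activated cation channel, went from 160.1 to under the floor, at least 2.55-fold lower. Against the higher floor of 84.7 the bound is 1.89-fold and the call is lost. PPFIBP1, the liprin that binds S100A4, was 1.74-fold lower, and PGLYRP1 at least 1.73-fold lower, at 108.7 in monolayer. Of 23 genes in this list with a probe set of their own 19 were measured, and 2 of these passed 2-fold, both lower. Of all measured genes, 3.08% were at least 2-fold lower. With the spike-in scaling MDM2, which encodes the ubiquitin ligase of p53, passed as well, 2.02-fold higher, and was named after its value was seen. The list's median log2 difference was -0.28, and 0.008 on the spike-in scale.

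By their brightest probe sets, the direct partners of the bright members differed less. MYH9, the non-muscle myosin heavy chain that S100A4 binds, was at 1024 and 895.8, a log2 difference of -0.19 beside -0.14 for S100A4. CACYBP was at 10091 and 10262 (0.02), beside -0.24 for S100A6. Other bright probe sets of CACYBP were at 0.23 and 0.02, and a dim one at a lower bound of 0.98. AHNAK, the giant scaffold protein that binds the S100A10 and annexin A2 complex, was at 2574 and 1831 (-0.49). A dimmer AHNAK probe set was at 325.0 and 196.7 (-0.72). Another went the other way, from under the floor to 100.9, a lower bound of 0.69. The receptor gene AGER, which encodes RAGE, was at 61.2 and 44.4 by its brighter probe set, under the floor on both arrays, and its other probe set was at 23.7 and 77.8.

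Annexins are calcium-dependent membrane-binding proteins, and several bind an S100 dimer. Of 11 annexins with a probe set of their own 10 were measured, and 0 passed 2-fold by their brightest probe sets. Of all measured genes, 2.53% were at least 2-fold higher and 3.08% lower. ANXA2, the partner of S100A10, was at 35311 and 33357 (-0.08), and 2 more probe sets, which also reach 16000, were at -0.16 and -0.09. The names of all 3 end in _x_at, which marks probes that can bind other transcripts. ANXA1, the partner of S100A11, was at 17681 and 22006 (0.32) by a probe set in the range where saturation may flatten differences. Its second, dim probe set was at 83.5 and 227.7 (1.45), 2.73-fold higher, so that 1 annexin passed 2-fold where the largest difference or the brightest probe set under 16000 stood for the gene. ANXA1 was named after its values were seen. The largest differences were those of ANXA3, at 6129 and 3447 (-0.83), and ANXA6, at 1441 and 882.0 (-0.71). ANXA10 was higher, at 6311 and 8966 (0.51), as was ANXA9, at 97.8 and 137.0 (0.49). The median was -0.24 over the 10 annexins, and 0.003 on the spike-in scale.

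A few other calcium sensors of the EF-hand type held larger differences than the S100 members did. CALML4, a calmodulin-like gene of the brush border, went from 1951 to 619.5 (log2 difference -1.66), with -0.96 and 0.04 by its other 2 probe sets that exceeded the floor. TESC, or tescalcin, which binds a sodium-proton exchanger, went from 622.7 to 233.8 (-1.41). EFHD1, a mitochondrial calcium sensor, went from 209.8 to under the floor, at least 3.35-fold lower. RCN3, a calcium-binding protein of the endoplasmic reticulum, was at 72.8 and 111.7 (0.62). Of 26 measured genes of 27 with a probe set, CALML4, TESC and EFHD1 passed 2-fold, all lower, where 3.08% of all measured genes did. The list's median was -0.07, beside -0.19 for the S100 members. The 3 that were lower stood apart from the rest of the list, whose members lay between -0.57 and 0.62. With the floor raised to the 75th percentile only CALML4 passed 2-fold, and by the median of its probe sets CALML4 did not. TESC and EFHD1 were also dimmer than most S100 members. Of genes with a mean signal under 250, 5.78% were at least 2-fold lower. The share was 3.40% between 250 and 1000, and 0.886% between 1000 and 4000. That the S100 members differ from this list was not tested.

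**Figure D4:**
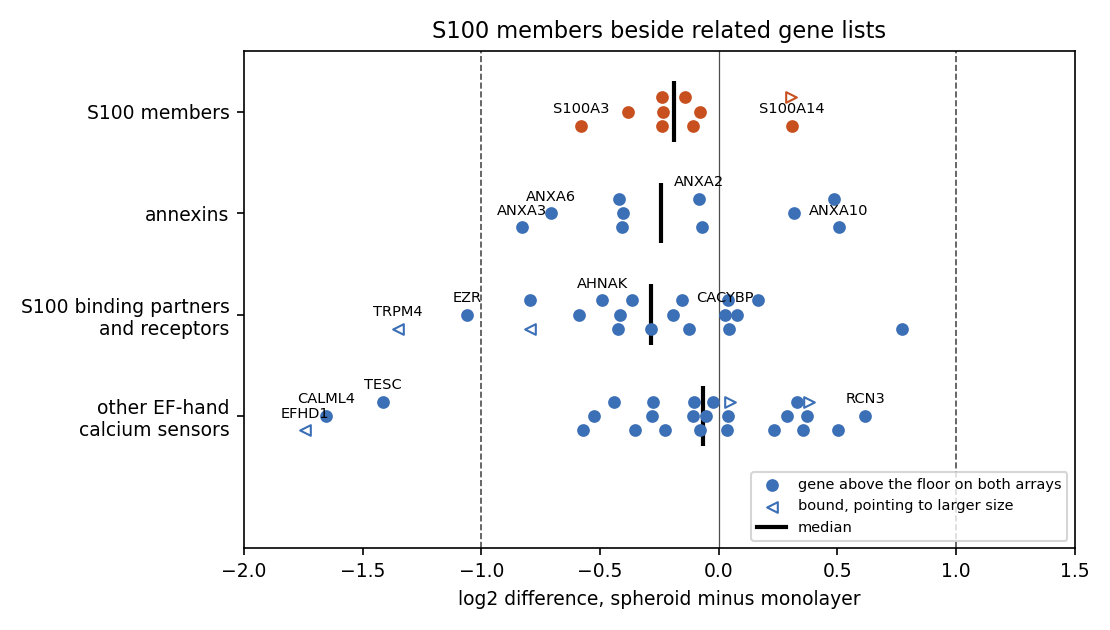
Log2 difference between the spheroid and the monolayer array for the S100 members (orange) and for annexins, S100 binding partners and receptors and other EF-hand calcium sensors (blue), with each list's median as a black bar, open triangles for bounds and 2-fold differences dashed. The S100 members span -0.58 to 0.31, and EZR, TRPM4, CALML4, EFHD1 and TESC lie left of the dashed line.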

How the data were processed

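RNA of HT-29 monolayer cells and of HT-29 spheroids was hybridised by the authors to 1 Human Genome U133 Plus 2.0 array each, and MAS5 signals were computed with Affymetrix Expression Console. The deposited values are these signals, an intensity on a linear scale, and both arrays had a trimmed mean of 500.1 (2% trimmed at each end). Duplicates are mentioned in the methods. A single array of each culture was used here, which limits the precision, and no p-value was computed.

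The platform annotation gives 1 gene for 41097 of 54675 probe sets and several for 1801, which were left unnamed like the 11777 without an entry. Symbols of 41043 were updated through the GRCh38.p14 RefSeq table, used for names, neighbours and overlaps. Signals below the 50th percentile were raised to it and differences taken on the log2 scale (numpy 2.4.6, pandas 2.3.3, Python 3.11.15; plots by matplotlib 3.10.9). The threshold of 2-fold is that of the methods. The members and lists (other S100 genes, annexins, binding partners, other EF-hand sensors, epidermal cluster genes, colon and other cell markers) were chosen with earlier results of these data known. Named are all members, the measured genes among the other S100 genes and S100PBP, and up to 4 genes with the largest difference per list. The partners ANXA2, AHNAK, EZR, MYH9, CACYBP and AGER are also named. Other genes are named to complete a marker list or a stretch of the chromosome. The computation was tested on simulated data, with known differences put only into genes well above the floor. That test checks the code and does not measure the error of dim or saturated signals.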

Additional observations from a re-analysis of the deposited data

How the results depend on the processing

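Alternatives were median scaling, quantile normalization, scaling to the hybridisation spike-ins, leaving the floor out, raising it to the 75th percentile (386.0) or to 84.7 (set by olfactory receptor genes), a pseudocount of 15.9 in place of the floor, the median or the largest difference of a gene's probe sets, the brightest probe set under 16000, and thresholds of 1.5-fold and 3-fold. Under these 12 settings 0 members were lower past the threshold. The number at least 2-fold higher was 1 without a floor and with the pseudocount (S100P, at log2 differences of 2.13 and 1.48), and 1 with the largest difference and with the brightest probe set under 16000 (S100A6 by its dim probe set, at 1.40). The members' median ran from -0.26 with median scaling to 0.06 with spike-in scaling. Of 97 values of single members 7 moved by more than the SD between probe sets.

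Over all genes the count at least 2-fold higher was 700 with spike-in scaling, 2476 without a floor, 100 with the floor at the 75th percentile, 580 with the pseudocount and 791 with the largest difference. It was 1256 at 1.5-fold and 52 at 3-fold. The count at least 2-fold lower was 189, 2502, 74, 648 and 716 in the same order, and 1535 and 60. The cause of these shifts was not tested, other than that a threshold or floor passes fewer or more genes by construction.

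With 1 array per condition, leaving out replicates was not possible. No paired analysis was possible because each group has 1 sample. Dim probe sets, with signals near the floor, set the limit for S100A3, S100P and the second probe sets of S100A6, S100A10 and S100A13. Signals near the top of the scale set it for S100A6 and S100A10.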

Other observations

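Genes of the epidermal cluster that lie between S100A11 and S100A9, some of which encode long proteins with an S100 domain at one end, gave little signal. Of 10 such genes in the list with a probe set of their own, 3 were measured, beside 13183 of all 19775 genes. SPRR1A, a small proline-rich protein of the cornified envelope, was at 104.0 on the monolayer array and at 71.8 on the spheroid array (log2 difference -0.53). SPRR1B was at 69.0 and 66.0 (-0.06), and SPRR3 was under the floor in monolayer and at 82.6 in spheroids, at least 1.32-fold higher. The list does not hold every gene of the stretch. Outside it, SPRR4 and LCE1E went from under the floor to 108.4 and 94.5 in spheroids (bounds of 0.79 and 0.59). SPRR2B went from 118.7 in monolayer to under the floor (bound of -0.92). FLG, which encodes filaggrin, one of the proteins with an S100 domain, was at 11.1 and 18.8, under the floor on both arrays.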
